A study of Drosophila melanogaster with 12 samples.

Results

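Heads of flies that expressed human TDP-43 (hTDP-43) in glia were compared directly with heads of flies that expressed it in neurons, without passing through the undriven control. The 4 libraries of this comparison, labelled Repo/TDP43 (S05 and S06) and Elav/TDP43 (S11 and S12), were chosen by their labels out of 6 RNA-seq libraries and 12 samples in the series. Every feature in the count table was eligible, and 13326 genes and 120 transposons passed the filter on low counts. All flies carried the hTDP-43 transgene under UAS control in a w1118 (isoCJ1) background and were sampled 8 to 10 days after eclosion. The Repo-Gal4 driver is active in nearly all glia and the Elav-Gal4 driver in neurons. The undriven group (TDP43/2U, S14 and S15) carried the transgene with no Gal4 and is given below only as a reference level, with no test against it. RNA-seq of either driver line without the transgene was not analysed here, so the driver line and the site of hTDP-43 expression cannot be told apart. The study describes 2 independent libraries per genotype from populations of flies, and p-values measure the spread between these libraries.

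TDP-43 is an RNA-binding protein that regulates splicing and RNA stability, and it forms cytoplasmic aggregates in neurons and glia in amyotrophic lateral sclerosis. Fly glia fall into classes: perineurial and subperineurial glia form the blood-brain barrier, cortex glia wrap neuronal cell bodies, and ensheathing and astrocyte-like glia serve the neuropil and clear transmitters. After injury, fly glia engage the engulfment receptor Draper and Jun kinase (JNK) signalling.

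Total counts ran from 22476024 to 36087786 in the 4 libraries and were 32122780 and 41150009 in the undriven libraries. Levels are CPM values, counts relative to the library total, scaled by trimmed-mean (TMM) factors, and they compare libraries rather than genes, since they are not divided by length. The photoreceptor opsin ninaE was at 18505 and 18766 CPM in the Repo libraries and at 22411 and 21986 CPM in the Elav libraries. The male-specific dosage compensation RNA roX1 lay between 3441 and 4205 CPM in all 6 libraries. The yolk protein gene Yp1, abundant in females, was at 4.24 and 2.66 CPM in Repo heads and 12.7 and 10.9 CPM in Elav heads. It was at 3.66 and 2.20 CPM without a driver (log2 -1.75 ± 0.23 between the drivers, called). Of 11 yolk and female-biased genes tested, 3 were higher in Elav heads (27.3%, against 18% of all genes). In Repo heads 0 were higher (0 by DESeq2 and at an unadjusted p under 0.05). Whether the groups differed in the share of females was not tested. The transcript level of the human transgene was not analysed here. TBPH, the fly ortholog, was at 62.1 and 57.3 CPM with glial and 58.4 and 61.0 CPM with neuronal expression, a log2 difference of 0.00 ± 0.07 (SE, n = 2 per group, adjusted p = 0.983).

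The eye pigment transporter gene w, whose mini-white copy commonly marks fly transgenes, differed in every group. It was at 242 and 251 CPM in the Repo libraries, 74.8 and 71.6 CPM in the Elav libraries, and 2.63 and 2.53 CPM in the undriven libraries. Its log2 difference between the drivers was 1.75 ± 0.05. The part that marker genes of the driver lines play in this difference, and line differences in other genes, was not tested.

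Glial and neuronal hTDP-43 heads differed at 4627 genes at a Benjamini-Hochberg adjusted p under 0.05 in edgeR's quasi-likelihood test, which is 34.7% of the genes tested. Of these, 2231 were higher with glial expression (16.7% of the genes tested) and 2396 were higher with neuronal expression (18%). Most differences were modest: 65.7% of the called genes differed by less than 2-fold. Among the larger differences the directions were unequal, with 1312 genes at least 2-fold higher in Repo heads (9.85%) and 274 at least 2-fold higher in Elav heads (2.06%). Direction followed abundance. Genes under 1 CPM had a median log2 difference of 0.85 and genes above 100 CPM one of -0.15, and 44.4% of the latter were called higher in Elav heads against 12.9% higher in Repo heads. Among genes with a mean of at least 10 CPM, 970 were higher in Repo heads and 2265 in Elav heads. The part that RNA quality or library construction plays in this trend was not tested. Without S05 the count fell to 2077 genes and without S06 to 2762 genes. Of 120 transposons tested, 37 were called (30.8%), 19 higher with glial and 18 higher with neuronal expression.

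**Figure D1:**
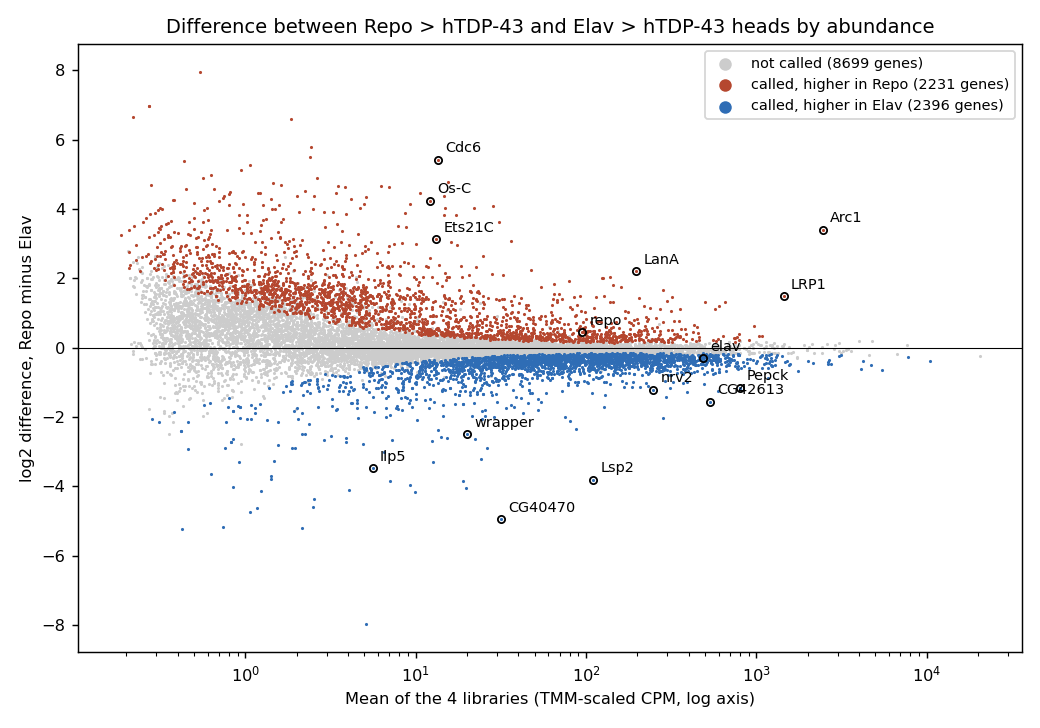
Each point is a gene, with its mean level over the 4 libraries (TMM-scaled CPM, log axis) against its log2 difference (Repo minus Elav). Red points are the 2231 genes called higher in Repo heads and blue points the 2396 called higher in Elav heads, and most of the larger differences among low-abundance genes lie above 0.

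The undriven libraries show on which side these differences lie. For 1992 of the 2231 genes called higher in Repo heads (89.3%), the undriven level was nearer to the Elav level than to the Repo level on a log2 scale. The same held for 2086 of the 2396 genes called higher in Elav heads (87.1%), and for 74.4% of all genes tested. It held for 1228 of the 1312 genes at least 2-fold higher in Repo heads (93.6%), but for 204 of the 274 genes at least 2-fold higher in Elav heads (74.5%), a share like that of all genes. Of the 130 called genes named here, 16 had an undriven level nearer to the Repo level: Cks30A, CR45456, CG17005, CG32553, retinin, Gs2, alrm, Gat, Capa, Xrp1, trol, Hsp70Aa, Hsp70Ab, Drsl5, Drs and Yp1. Of 135 genes with values here, 59 overlap another gene of the table in the Release 6 annotation, and without strand the reads of overlapping genes cannot be told apart.

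Arc1, a Gag-like capsid protein that carries RNA between cells, was the most abundant gene among the large differences. It was at 4402 and 4562 CPM with glial expression, 386 and 459 CPM with neuronal expression, and 500 and 541 CPM without a driver. Both Repo libraries were thus far above all other libraries, and Arc1 was 10.6-fold higher in Repo than in Elav heads (log2 3.41 ± 0.10, adjusted p = 5.24e-06).

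Several genes of injury and Jun kinase signalling were higher with glial expression. Ets21C, a transcription factor induced by JNK signalling, was at 24 and 23.5 CPM in Repo heads, 2.62 and 2.84 CPM in Elav heads and 2.46 and 2.77 CPM without a driver (log2 3.12 ± 0.13, adjusted p = 1.03e-05). Mmp1, a matrix metalloprotease and JNK target, was at 199 and 202 CPM in Repo heads, 45.9 and 54.4 CPM in Elav heads and 53.3 and 58.3 CPM without a driver (log2 2.00 ± 0.08). For both genes the Elav and undriven libraries were close together and the Repo libraries stood apart. The TNF ligand gene egr (log2 0.84), the JNK phosphatase gene puc (0.60) and the Fos gene kay (0.55) were higher in Repo heads, whereas the kinase gene bsk itself was lower (-0.41). Of 16 genes of a JNK list put together after values had been seen, 7 were higher in Repo heads and 2 in Elav heads, with a median log2 difference of 0.13 against 0.02 over all genes. drpr, which encodes Draper, was at 256 and 251 CPM in Repo heads and 147 and 142 CPM in Elav heads (log2 0.81 ± 0.05, adjusted p = 5.33e-05).

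DNA repair and cell death genes were called mainly in the same direction. Of 38 tested, 18 were higher in Repo heads and 2 in Elav heads, with a median log2 difference of 0.40. These were 47.4% and 5.26% of the list, against 16.7% and 18% of all genes. The list's median level was 14.7 CPM. The share of all genes called higher in Repo heads was 21.9% at 1 to 10 CPM and 13.6% at 10 to 100 CPM. The list shares 6 genes with the JNK list, among them Mmp1, Gadd45, egr and puc, and of the other 32 genes 14 were higher in Repo heads and 1 in Elav heads. Gadd45, a stress and damage response gene, was at 21.9 and 22.5 CPM in Repo heads, 6.14 and 6.73 CPM in Elav heads and 5.22 and 7.07 CPM without a driver (log2 1.79 ± 0.11, adjusted p = 6.38e-05). The end-joining genes Ku80 (log2 1.12) and Irbp (0.63), the break-processing genes rad50 (0.62) and mre11 (0.55), and the ATR kinase gene mei-41 (0.62) were all higher in Repo heads. For mre11 the Elav libraries (15.0 and 18.0 CPM) also lay above the undriven libraries (8.17 and 6.96 CPM). p53 (0.77), its effector in cell death rpr (1.70) and the stress transcription factor gene Xrp1 (0.43) were higher as well, and the Chk1 kinase gene grp was lower (-0.33). The level of rpr was low, at 3.87 and 3.39 CPM in Repo heads and 1.21 and 1.01 CPM in Elav heads. The calls of rpr, Irbp, mre11 and grp were lost without S05, and that of mre11 also without S06.

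A replication gene, Cdc6, had the largest difference among called genes with a mean of at least 10 CPM over the 4 libraries. It met that mean through the Repo libraries alone. So did the others of the 12 largest differences higher in Repo heads, except Arc1. The 12 largest in the other direction, except Lsp2, met it through the Elav libraries alone. Cdc6, which licenses replication origins, was at 22.1 and 30.8 CPM in Repo heads, 0.663 and 0.545 CPM in Elav heads and 1.49 and 0.618 CPM without a driver (log2 5.42 ± 0.24, 42.9-fold, adjusted p = 1.32e-05). Cdc6 overlaps the muscle gene Zasp66. RnrL, the large ribonucleotide reductase subunit, was at 10.1 and 11.8 CPM against 3.23 and 2.57 CPM (log2 1.90 ± 0.19). Orc1 (1.71), an origin recognition subunit, and PCNA (1.45), the sliding clamp, were also higher at levels under 7 CPM. The cyclin-dependent kinase subunit gene Cks30A differed in another way: it was at 18.1 and 22.6 CPM in Repo heads, 1.04 and 0.778 CPM in Elav heads and 9.92 and 9.84 CPM without a driver, so that the undriven level lay between. Of 24 replication genes, listed after values had been seen, 8 were higher in Repo heads and 1 in Elav heads (2 of the 8, RnrL and PCNA, are also on the repair list), at a median level of 5.22 CPM, and those 8 became 4 without S05 and 5 without S06. The call of PCNA was lost without S05.

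Extracellular matrix genes formed a further group. LanA, the laminin alpha chain of basement membranes, was at 326 and 324 CPM in Repo heads, 68.2 and 71.7 CPM in Elav heads and 65.1 and 59.6 CPM without a driver (log2 2.22 ± 0.05, adjusted p = 4.4e-06). The other laminin chains LanB2 (log2 1.55) and LanB1 (1.22), the collagen-binding protein gene SPARC (1.31) and the papilin gene Ppn (1.20) were higher too, and the perlecan gene trol differed less (0.27), a call that was lost without S05 and without S06. Of 17 basement membrane genes, again listed after values had been seen, 11 were higher in Repo heads and 2 in Elav heads, and Mmp1, a member of the JNK list too, is among the 11. Hemocytes make many of these proteins, and 3 genes are on both lists. Of the hemocyte markers, 9 of 21 were higher in Repo heads and 2 in Elav heads, and their summed level was 1992 and 2106 CPM in Repo heads, 1661 and 1632 CPM in Elav heads and 1634 and 1721 CPM without a driver. Without S05 or without S06 the 9 became 5. Hml, the hemocyte clotting protein gene, was at 456 and 519 CPM against 240 and 214 CPM (log2 1.10 ± 0.08), and the phagocytosis receptor gene NimC1 had a log2 difference of 1.05. The hemocyte peroxidase gene Pxn did not pass the test (115 and 126 against 147 and 130 CPM, adjusted p = 0.0785). In these bulk heads more cells of a type and more RNA per cell cannot be told apart.

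**Figure D2:**
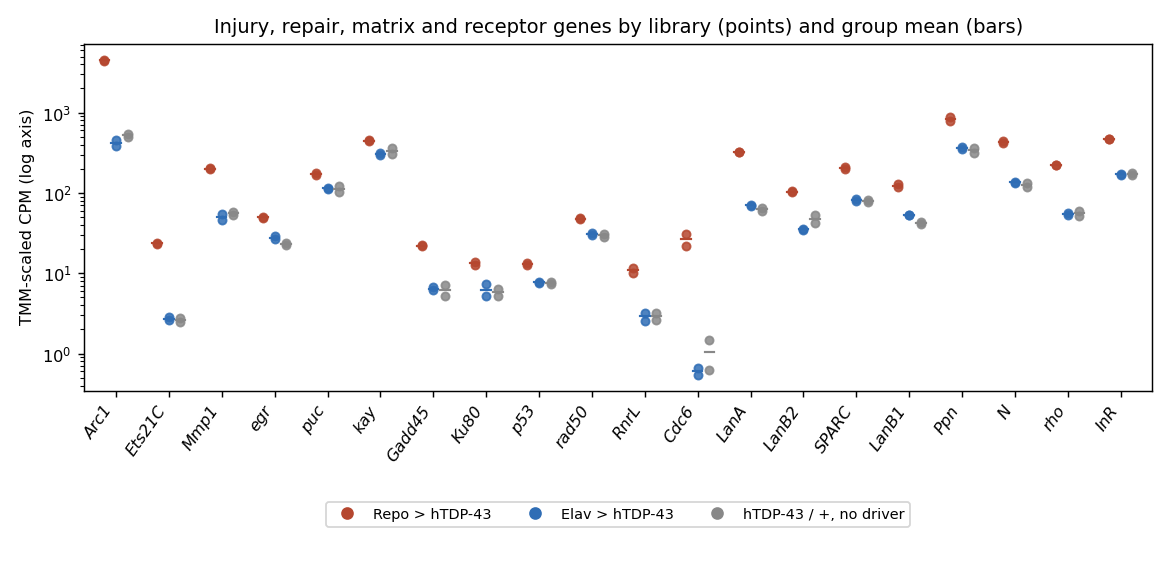
Levels of injury, repair, matrix and receptor genes in each of the 6 libraries (points, TMM-scaled CPM, log axis) with the mean of each group (short bars). For Arc1 the Repo libraries sit at 4402 and 4562 CPM, and for each gene shown both Repo libraries lie above both Elav libraries. Such separation of the groups, in either direction, held for all 4627 called genes and for 71.4% of all genes tested.

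Several abundant receptors were higher with glial expression. The lipoprotein receptor gene LRP1 was at 2080 and 2175 CPM in Repo heads and 776 and 748 CPM in Elav heads (log2 1.48 ± 0.06). The insulin receptor gene InR was at 466 and 472 CPM against 171 and 170 CPM, with 168 and 175 CPM in the undriven libraries (log2 1.46 ± 0.05, adjusted p = 7.6e-06). The Notch receptor gene N was at 416 and 439 CPM against 133 and 139 CPM (log2 1.66 ± 0.06), and rho, a protease that releases EGF receptor ligands, at 224 and 221 CPM against 52.8 and 56.2 CPM (log2 2.03 ± 0.06). Dscam1 (log2 1.32), the adhesion receptor of neuronal self-recognition, CG30069 (1.11) and CG30015 (1.31) completed the most abundant genes in this direction. Of 19 genes of the Notch, Wnt, Hedgehog and EGF receptor pathways, 8 were higher in Repo heads and 3 in Elav heads, and the 8 became 5 without S05.

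Glial marker genes split. Of 27 tested, 8 were higher in Repo heads and 13 in Elav heads, with a median log2 difference of -0.15. repo, the pan-glial transcription factor gene whose promoter gives the driver its name, was at 111 and 108 CPM in Repo heads and 78.1 and 83.3 CPM in Elav heads (log2 0.44 ± 0.06, adjusted p = 0.00135), against 82.5 and 73.8 CPM without a driver. Several genes of the barrier glia were on the higher side, but not all: the trehalose transporter gene Tret1-1 was lower in Repo heads (-0.54). The transporter gene Mdr65 was at 193 and 201 CPM in Repo heads, 79.4 and 79.7 CPM in Elav heads and 48.6 and 44.5 CPM without a driver (log2 1.31 ± 0.05), so the Elav libraries also exceeded the undriven ones. The septate junction gene Gli (log2 1.42), the barrier receptor gene moody (0.76), its regulator loco (0.77) and bdg (1.12) followed. Gli and Mdr65 are not on the septate junction and barrier list counted next, whose largest difference is that of bdg. Of 16 septate junction and barrier genes, 8 were higher in Repo heads and 2, Atpalpha (-0.62) and nrv2 (-1.21), in Elav heads, and the 8 became 5 without S05. pnt, an Ets transcription factor gene (1.41), e, the enzyme that conjugates beta-alanine to histamine in lamina glia (1.16), and vir-1 (0.40) were higher too.

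Among the 13 glial markers higher in Elav heads, wrapper had the largest difference. wrapper, a cell surface protein of glia that wrap neurons, was at 5.56 and 6.48 CPM in Repo heads, 32.8 and 34.9 CPM in Elav heads and 31.6 and 28.9 CPM without a driver (log2 -2.50 ± 0.11, adjusted p = 1.4e-05). zyd, a cortex glia calcium exchanger, was at 27.7 and 27.4 CPM against 64.9 and 63.9 CPM (log2 -1.23 ± 0.06). nrv2, a sodium pump subunit used as a glial marker, was at 148 and 152 CPM against 340 and 354 CPM, and axo (log2 -1.13) had a like difference. Genes of astrocyte-like glia were lower in Repo than in Elav heads to a lesser degree. They were the GABA transporter gene Gat (-0.85), the astrocyte marker alrm (-0.78), the glutamate transporter gene Eaat1 (-0.38) and the glutamine synthetase gene Gs2 (-0.33). For Gat and alrm it was the Elav libraries that stood apart, at 90.5 and 94.4 CPM for Gat against 53.1 and 65.7 CPM without a driver, and at 60.9 and 70.4 CPM for alrm against 44 and 34 CPM. The gap junction genes ogre (-0.88) and Inx2 (-0.61) and the trehalose transporter gene Tret1-1 (-0.54) were also lower in Repo heads. The call of Gs2 was lost without S06 and when all 6 libraries were fitted.

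**Figure D3:**
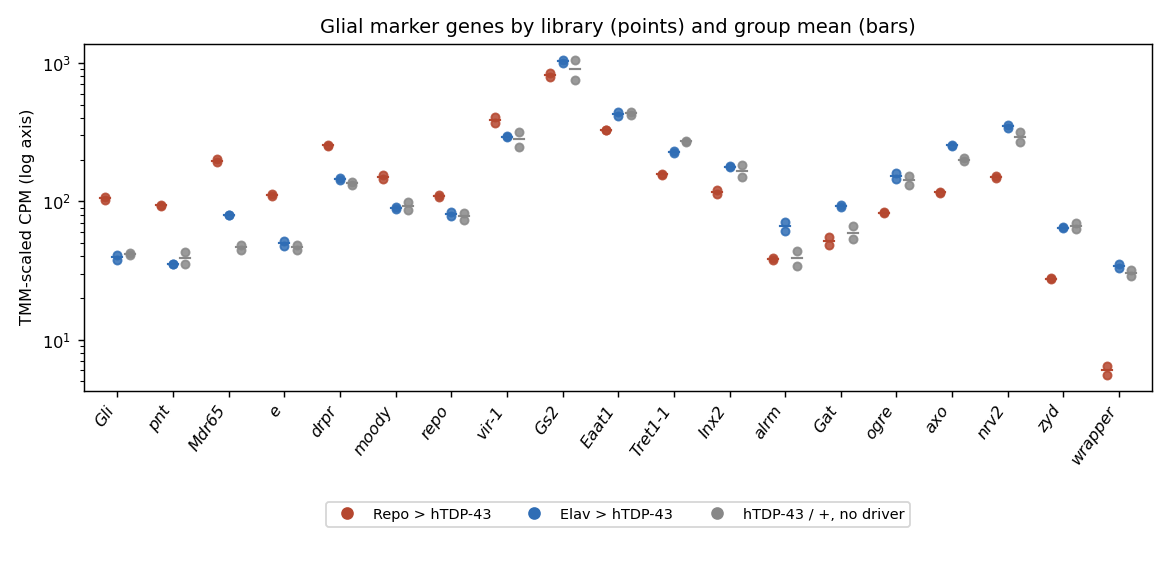
Levels of glial marker genes in each of the 6 libraries (points, TMM-scaled CPM, log axis) with the mean of each group (short bars). Gli to vir-1 are higher in the Repo than in the Elav libraries, Gs2 to wrapper are lower, and wrapper is at 5.56 and 6.48 CPM in the Repo libraries against 32.8 and 34.9 CPM in the Elav libraries.

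Neuronal genes were lower with glial than with neuronal expression, by less than 2-fold in each of the presynaptic genes tested. Of 25 neuronal and presynaptic genes, 23 were higher in Elav heads and 0 in Repo heads, with a median log2 difference of -0.38 and a range from -0.67 to -0.12. The 23 are 92% of the list, against 18% of all genes. The list's median level was 672 CPM. Of all genes above 100 CPM, 44.4% were called higher in Elav heads, with a median log2 difference of -0.15. Scaling by library size alone turned the 23 to 19. DESeq2 and an unadjusted p under 0.05 likewise gave 0 higher in Repo heads, and without S05 the 23 became 11. Their summed level was 18452 and 19257 CPM in Repo heads, 24580 and 23900 CPM in Elav heads, and 24044 and 26840 CPM without a driver, so the Elav libraries lay within or just below the undriven range. elav itself, which encodes a neuronal RNA-binding protein, was at 428 and 438 CPM in Repo heads and 552 and 521 CPM in Elav heads (log2 -0.31 ± 0.06, adjusted p = 0.00492). The active zone gene brp (-0.38) and the synaptic vesicle gene nSyb (-0.31) were similar in size. The calls of elav, brp and nSyb were lost without S05, and that of nSyb also without S06.

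Of 27 genes of fast transmission, 25 were higher in Elav heads and 0 in Repo heads (0 by DESeq2 and at an unadjusted p under 0.05), with a median of -0.48. The 25 are 92.6% of the list, at a median level of 160 CPM, and became 20 with scaling by library size alone. The vesicular glutamate transporter gene VGlut was at 361 and 366 CPM in Repo heads, 625 and 612 CPM in Elav heads and 654 and 573 CPM without a driver (log2 -0.77 ± 0.05, adjusted p = 7.57e-05). Gad1, the GABA-synthesizing enzyme (-0.70), ChAT, the acetylcholine-synthesizing enzyme (-0.63), VAChT, its vesicular transporter (-0.51), Rdl, a GABA receptor (-0.50), and ort, a histamine receptor (-0.91), were all lower in Repo heads. ChAT and VAChT overlap and share a first exon, so their counts are not independent. Of 25 genes of monoamine signalling 21 were higher in Elav heads and 1 in Repo heads, and of 18 potassium channel genes 12 and 1. The shares higher in Elav heads were 84% and 66.7%, at median levels of 72.9 and 139 CPM. Over all genes they were 25.5% at 10 to 100 CPM and 44.4% above 100 CPM. Scaling by library size alone turned the 21 to 14 and the 12 to 8. Without S05 the 21 became 10 and the 12 became 5. Of the genes in the longest 20% by gene span, 35.1% were called higher in Elav heads. With each library's trend over gene span removed, the counts higher in Elav heads were 19 of 25 presynaptic, 21 of 27 fast transmission, 14 of 25 monoamine and 8 of 18 potassium channel genes, and the potassium channel median went from -0.27 to -0.14.

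Neuropeptide genes showed the widest differences among neuronal lists. Of 34 tested, 22 were higher in Elav heads and 1 in Repo heads, with a median of -0.74. The 22 are 64.7% of the list, at a median level of 18.8 CPM, against 18% of all genes and 25.5% of those at 10 to 100 CPM. Ilp5, an insulin-like peptide of the brain's insulin-producing cells, was at 1.04 and 0.773 CPM in Repo heads, 10.2 and 10.4 CPM in Elav heads and 5.93 and 8.79 CPM without a driver (log2 -3.48 ± 0.21, adjusted p = 5.27e-05). Ilp2, made in the same cells, differed less (21.2 and 24.5 against 38.1 and 49.2 CPM, log2 -0.94 ± 0.13). Pdf, the peptide of clock neurons, was at 8.08 and 5.79 CPM against 22.5 and 21.8 CPM (log2 -1.66 ± 0.16). Tk (-1.12), sNPF (-0.85) and Nplp2 (-0.70) were also lower, and Capa, a diuretic peptide gene, was higher (0.93). Of 16 circadian clock genes, 2 were higher in Repo heads (0 without S05), 5 in Elav heads and 9 were not called, with a median of -0.12. Among the 5 were tim (-0.60) and the blue-light receptor gene cry (-0.49), and tim was at 1519 and 1579 CPM without a driver, above both driven groups.

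**Figure D4:**
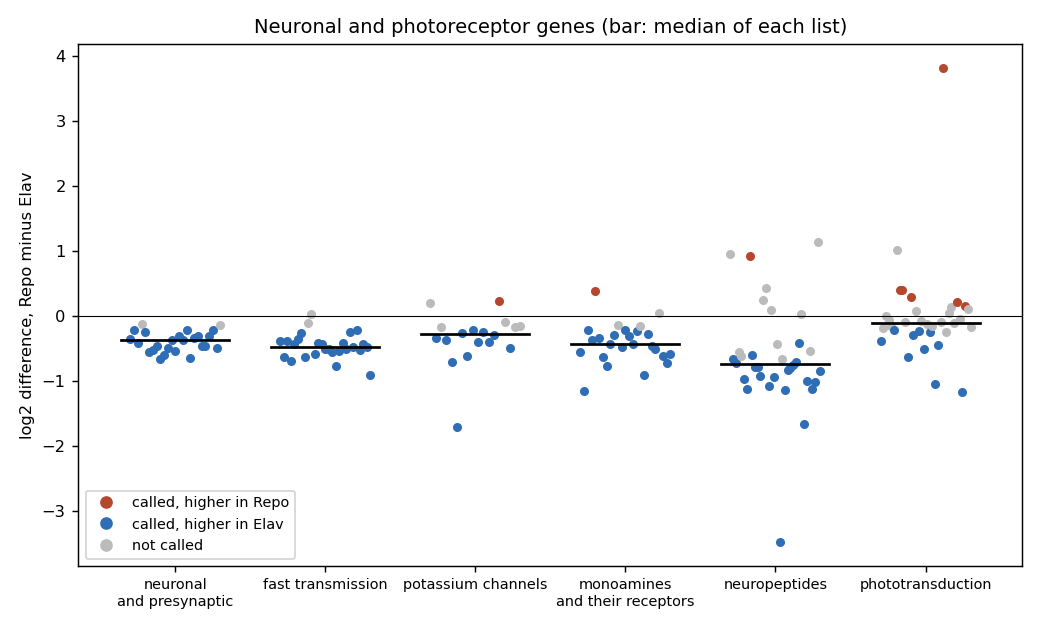
Log2 difference (Repo minus Elav) of each tested gene of 6 lists, with points in alphabetical order within a list and a bar at its median. Blue points, called higher in Elav heads, make up 23 of 25 presynaptic and 25 of 27 fast transmission genes, and Ilp5 is the lowest neuropeptide at -3.48.

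Genes of the phototransduction list, not all of them photoreceptor genes, were called in both directions, 17.6% higher in Repo heads and 29.4% in Elav heads. Over all genes these shares were 16.7% and 18%, and over genes above 100 CPM they were 12.9% and 44.4%. The list's median level was 458 CPM. Of 34 phototransduction genes, 6 were higher in Repo heads and 10 in Elav heads, with a median of -0.10, and scaling by library size alone turned these counts to 10 and 6. Without S05 they were 3 and 5, and without S06 2 and 6. ninaE had a log2 difference of -0.25 that did not pass the test (adjusted p = 0.0594). The largest differences were those of ninaD, a carotenoid scavenger receptor gene at 24.1 and 30.8 CPM in Repo heads against 2.02 and 1.83 CPM in Elav heads (log2 3.83 ± 0.17), and retinin, a corneal lens protein gene at 194 and 188 CPM against 426 and 440 CPM (-1.18 ± 0.05).

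Of 34 odorant-binding protein genes tested, 11 were higher in Repo heads and 12 in Elav heads, with a median of -0.12, and scaling by library size alone gave 11 and 9. Some antennal genes were among the largest differences, with both Repo libraries above the other 4. Obp83a was at 45.3 and 37.9 CPM in Repo heads, 1.79 and 3.42 CPM in Elav heads and 2.17 and 1.18 CPM without a driver (log2 4.04 ± 0.24, adjusted p = 4.89e-05). Obp83b (4.04), Os-C (4.24) and a10 (3.83), which are likewise expressed in the antenna, had similar values, whereas Obp56e (-2.70) and Obp44a (-2.04) were lower in Repo heads. The odorant co-receptor gene Orco was at 20.3 and 18.1 CPM against 3.46 and 4.12 CPM (log2 2.35 ± 0.15). Of 88 chemoreceptor genes tested, 36 were higher in Repo heads and 3 in Elav heads, at a median level of 0.824 CPM, and the 36 became 12 without S05 and 18 without S06. Another 92 of the 180 in the table were too low to be tested, and a gene could pass that filter through the Repo libraries alone. With at least 10 counts required in every library, 45 were tested, 14 of them higher in Repo heads and 1 in Elav heads. Whether the collected heads differed in attached antennae was not tested.

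Many genes of energy metabolism were lower with glial expression. Of 66 nuclear respiratory chain genes, 44 were higher in Elav heads and 4 in Repo heads, with a median of -0.37, and the 44 became 29 without S05. Of 30 glycolysis and sugar genes, 21 were higher in Elav heads and 3 in Repo heads, and the 21 became 10 without S05 and 13 without S06. The shares higher in Elav heads were 66.7% and 70% of these lists, at median levels of 47.5 and 173 CPM. Of all genes, 18% were called higher in Elav heads, with 25.5% at 10 to 100 CPM and 44.4% above 100 CPM. Scaling by library size alone turned the 44 to 35 and the 21 to 12, and upper quartiles gave 37 and 12. The aldolase gene Ald was at 998 and 1022 CPM in Repo heads and 1309.9 and 1441 CPM in Elav heads (log2 -0.45 ± 0.07). Gpdh differed by -0.62 and Eno by -0.40, whereas the lactate dehydrogenase gene ImpL3 was higher (0.69). Pepck, the gluconeogenic enzyme gene, was at 479 and 513 CPM against 1002 and 1203 CPM (-1.15 ± 0.09), and CG45087 had nearly the same counts in each library, so these entries may hold the same reads. Of 91 cytosolic ribosomal protein genes, 44 were higher in Elav heads (48.4%) and 6 in Repo heads. That share was near the 44.4% of all genes above 100 CPM called higher in Elav heads, and the list's median level was 268 CPM. With scaling by library size alone the 44 became 22. Leaving out 1 library gave 31 without S05, 13 without S06, 71 without S11 and 43 without S12. Of 75 mitochondrial ribosomal protein genes, 8 were higher in Elav heads (10.7%, against 18% of all genes), 0 in Repo heads (0 by DESeq2 and at an unadjusted p under 0.05) and 67 were not called. The 8 became 1 without S05 and 2 without S06, and 13 without S11 and 5 without S12.

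Stress and immune genes gave no common direction. Of 29 heat shock genes, 14 were called higher in Repo heads (48.3%, against 16.7% of all genes), 3 were higher in Elav heads and 12 were not called. Fewer were called higher in Repo heads without S05. The list's median level was 13.1 CPM, and its summed level did not separate the groups. It was 4958 and 4854 CPM in Repo heads, 4867 and 5102 CPM in Elav heads and 4969 and 5088 CPM without a driver. Hsp70Ab was at 17.2 and 18.3 CPM in Repo heads, 4.12 and 4.59 CPM in Elav heads and 9.27 and 8.76 CPM without a driver, so the Elav libraries were the lowest (log2 2.03 ± 0.13). Hsp70Aa (2.14) and Hsp70Bb (2.46) are near-identical copies whose reads the counting could split. Hsp22 (1.42), Hsp23 (0.92) and Hsp68 (0.53, not called without S05) were higher, the abundant Hsp83 did not pass the test (0.12, adjusted p = 0.151), and the mitochondrial chaperone gene Hsp60 was lower (-0.43). Of 16 endoplasmic reticulum stress genes 0 were called in either direction by edgeR, with 3 at an unadjusted p under 0.05 and 2 by DESeq2. The cytokine genes upd3 (2.69) and upd2 (2.62) were higher in Repo heads at levels under 5 CPM, and their target Socs36E was at 112 and 112 CPM against 72.3 and 72.3 CPM (0.63 ± 0.05), whereas the stress peptide gene TotX was lower (-1.25). Of 23 antimicrobial peptide genes, 3 were higher in Repo heads, among them Drs (2.09, not called without S05), and 6 in Elav heads, among them Def (-2.90), Drsl5 (-1.98) and Listericin at 5.6 and 7 against 46.6 and 46.3 CPM (-2.89 ± 0.12). Without S05 the 3 became 0, without S11 they became 5, and without S12 the 6 became 9.

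Of 8 larval serum and fat body genes tested, 5 were higher in Elav heads and 0 in Repo heads (0 by DESeq2, 1 at an unadjusted p under 0.05). Lsp2, a larval serum storage protein gene, was at 13.5 and 16.1 CPM in Repo heads, 184 and 227 CPM in Elav heads and 451 and 479 CPM without a driver (log2 -3.80 ± 0.13, adjusted p = 7.6e-06), so the 3 groups did not overlap. Lsp1beta (-2.12) and the abundant carrier protein gene Obp44a (-2.04) followed. The antioxidant genes Sod3 (-1.35) and MtnA (-1.37), a metallothionein gene, were lower as well, and MtnA varied between the undriven libraries (110 and 303 CPM).

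**Figure D5:**
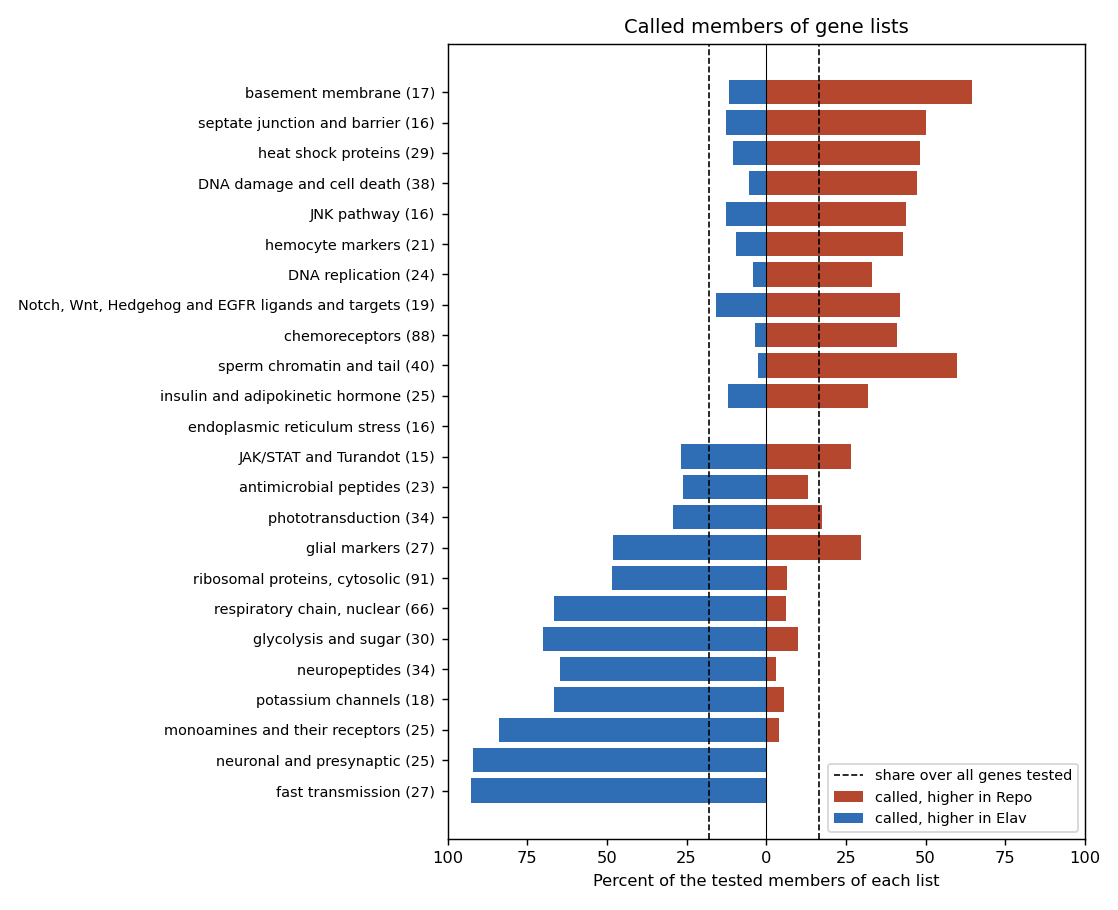
Percent of the tested members of each gene list (number in brackets) called higher in Repo heads (red, right) or in Elav heads (blue, left), with dashed lines at the shares over all genes tested (16.7% and 18%). Basement membrane genes reach 11 of 17 on the right and fast transmission genes 25 of 27 on the left, and the basement membrane, JNK pathway and DNA replication lists were put together after values had been seen.

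Most of the remaining genes with the largest differences are known only by a number. The juvenile hormone esterase duplication gene Jhedup was at 32.0 and 27.9 CPM in Repo heads and 1.21 and 0.934 CPM in Elav heads (log2 4.78 ± 0.17), and CG16826 was at 38.0 and 69.8 CPM against 3.92 and 2.26 CPM (4.08 ± 0.35). In 2 cases it was the Elav libraries that departed downwards from the undriven level. The noncoding gene CR45456 was at 22.8 and 33.4 CPM in Repo heads, 1.56 and 1.09 CPM in Elav heads and 27.5 and 29.0 CPM without a driver, and CG17005 was at 48.7 and 65.3, 4.58 and 4.71, and 58.8 and 58.8 CPM. In the other direction CG40470 was at 2.11 and 1.85 CPM in Repo heads, 58.6 and 64.3 CPM in Elav heads and 56.4 and 54.0 CPM without a driver (log2 -4.94 ± 0.11). CG7135 (-4.04), CG9507 (-3.84), CG1552 (-3.22), CG3270 (-2.59), CG32523 (-2.64), CG4409 (-2.57) and Obp56e (-2.70) were also lower in Repo heads. CG32553 was at 2.74 and 1.89 CPM in Repo heads, 22.1 and 24.1 CPM in Elav heads and 2.56 and 2.12 CPM without a driver, so only the Elav libraries stood apart. Among the abundant genes lower in Repo heads were CG42613 (-1.55), CG8343 (-1.26), Tequila (-1.27), CG8329 (-1.05) and CG4577 (-1.01).

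Calls were spread over the chromosomes, with 33.3% to 35.9% of the tested genes called on each of the arms X, 2L, 2R, 3L and 3R and 32.0% on chromosome 4 (RefSeq, Release 6). Of 17 genes on the Y chromosome 2 were higher in Repo heads and 7 in Elav heads. Sperm genes, which heads should lack, were called higher in Repo heads at 24 of 40, and their summed level was 765 and 556 CPM in Repo heads, 451 and 322 CPM in Elav heads and 294 and 210 CPM without a driver. Without S05 the 24 became 4. The part of other tissue in the remaining low-abundance calls was not tested.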

How the data were processed

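Total RNA from heads was made into NuGEN Ovation Drosophila libraries and sequenced as paired reads. Per the study's methods and the labels, the authors mapped reads to dm3 with STAR, allowing up to 4 mismatches and 100 alignments, removed ribosomal RNA reads, and deposited whole-number counts per RefSeq gene and transposon, made with TEtranscripts, which also assigns reads of repeated sequences. Tool versions and the use of strand are not given in the sources used here. The small RNA table was not used.

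Repo/TDP43 and Elav/TDP43 were compared with edgeR 4.0.16 (limma 3.58.1, R 4.3.3): filterByExpr, TMM factors and the quasi-likelihood F test on the 4 libraries, with p-values adjusted by Benjamini-Hochberg across all features. SEs are the log2 difference divided by the square root of F. Undriven libraries were put on the same scale. The position of the undriven level used log2 of CPM plus 0.5. Total counts of 22476024 to 36087786 per library set the counting error. Replicate pairs differed by more than counting noise (chi-square per degree of freedom 6.28 and 10.6), which does not show how the libraries were made. Each library was counted as a replicate on the study's description of independent libraries for each genotype. On simulated counts with 200 changed genes, fewer than were called in the data, the test recovered 34% of log2 differences of 0.5 and 65% of differences of 1. It made 4 and 17 false calls. DESeq2 1.42.0, other scalings and filters, and leaving out each library were alternatives.

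Genes were named as the 12 largest differences per direction among called genes of at least 10 CPM whose groups do not overlap, the 8 most abundant called genes per direction with a difference of at least 2-fold, leading members of lists, and repo, elav and TBPH. The condition on overlap removed no gene, since all 4627 called genes met it. w was added after its values were seen. The comparison and the lists were chosen with earlier results of these data known. Of the tested genes, 13215 matched a RefSeq entry.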

Additional observations from a re-analysis of the deposited data

How the results depend on the processing

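The 4627 calls became 2419 at an adjusted p under 0.01 (948 higher in Repo, 1471 in Elav) and 1586 with a log2 difference of at least 1 (1312 and 274, 82.7% higher in Repo). Scaling shifted the median log2 difference of all genes from 0.02 to 0.14 by library size alone and to 0.12 by upper quartiles, which moved the share of called genes higher in Repo heads from 48.2% to 65.5% (1583 genes higher in Elav) and 63.7%. Fitting all 6 libraries left 1458 genes higher in Repo. At 10 CPM or more, an alternative added after seeing the data, 970 genes were higher in Repo (29.98% of calls). Leaving out 1 library, where the lone sample is assumed to vary like the other group, gave 2077 to 4902 calls, 781 to 2320 higher in Repo, 1296 to 2582 higher in Elav and 37.6% to 47.3% higher in Repo. DESeq2 called 3790 genes, 3656 of them shared with edgeR and all of these in the same direction.

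Of 130 called genes named here, 13 lost the call under at least 1 alternative, most often without S05, and none changed sign. Among uncalled genes, roX1 turned to 0.033 by library size alone and 0.0212 by upper quartiles, and TBPH to -0.00871 with DESeq2 size factors, -0.00885 with DESeq2, -0.0284 without a filter and -0.0213 with all 6 libraries, with a range of -0.0679 to 0.0539 when 1 library was left out. No paired analysis was possible because the groups share no replicate numbers. With 2 libraries a group, 34% of simulated log2 differences of 0.5 were recovered. The simulation changed 200 genes, whereas 4627 were called in the data. The Benjamini-Hochberg cutoff depends on the number of changed genes, so this recovery rate may not hold for the data. The smallest absolute log2 difference called was 0.148, and an uncalled gene may still differ.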
